A study of Caenorhabditis elegans with 2 samples.

Results

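A set of 10 bHLH genes of Caenorhabditis elegans was examined for binding of CES-1: lin-32, cnd-1, ngn-1, hlh-14, hlh-4, hlh-6, hlh-19, hlh-10, hlh-13 and hlh-17. They are 10 of 19973 protein-coding genes on the nuclear chromosomes, taken by name as proneural and neuronal bHLH genes. The set also takes in hlh-6, which acts in pharyngeal glands, and hlh-17, expressed in cephalic sheath glia. Every peak summit in the body of a gene or within 10 kb of it was collected, whatever its strength. CES-1 is a Snail-family zinc finger protein, and ChIP-seq sequences the DNA that is recovered with a protein. Both libraries came from whole mixed-stage embryos of strain OP174, with males and hermaphrodites not separated. That strain carries the unc-119(ed3) mutation and an integrated transgene, wgIs174, which holds ces-1 fused to TY1, EGFP and FLAG tags together with an unc-119 rescue copy. The 2 biological replicates form a single group, and no peak list from untagged animals was analysed here, so no comparison between conditions was possible and no test was made. The tagged protein comes from a transgene, and a signal from whole embryos cannot tell strong binding in few cells from weak binding in many.

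Basic helix-loop-helix (bHLH) proteins bind DNA as dimers at E-boxes, written CANNTG, and proneural members pair with the E protein HLH-2. Proneural factors start neuronal fate in ectodermal precursors, and later members of the family specify single neuron or gland types. Snail-family repressors bind the E-box CAGGTG, so both protein families read related letters.

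The authors deposited a thresholded peak list, which keeps peaks that rank reproducibly between replicates, and longer relaxed lists for the pooled reads and for each replicate. The thresholded list held 6290 peaks, 6273 of them nuclear, with a peak signal from 58.7 to 3177 and a nuclear median of 119 in the authors' units. Rank 1 is the strongest peak. The pooled relaxed list held 30000 peaks with a nuclear median signal of 24.3, and 7013 of its peaks had a −log10 q of at least 2. Signals of single replicates run lower than pooled ones and are set side by side only with each other.

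A thresholded summit lay in the gene body or within 10 kb for 8 of the 10 genes, against 57.9% of all protein-coding genes. None of the 10 genes had one in its promoter window, taken as 1000 bp before to 200 bp after a 5′ end, against 16.2% of all genes. Only cnd-1 had a thresholded summit in its body, 1 of 10 genes against 7.19% of all. In all, 12 thresholded summits fell in these windows, 7 upstream, 4 downstream and 1 in a gene body. Their density was 0.551 per 10 kb of window, beside 0.626 per 10 kb over the nuclear genome. The median distance from the genes' 5′ ends to the nearest thresholded summit was 8308 bp, beside 8401 bp over all genes. By density and median distance, though not by promoter windows, the neighbourhoods of the 10 genes were close to the genome at large in thresholded CES-1 peaks.

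**Figure D1:**
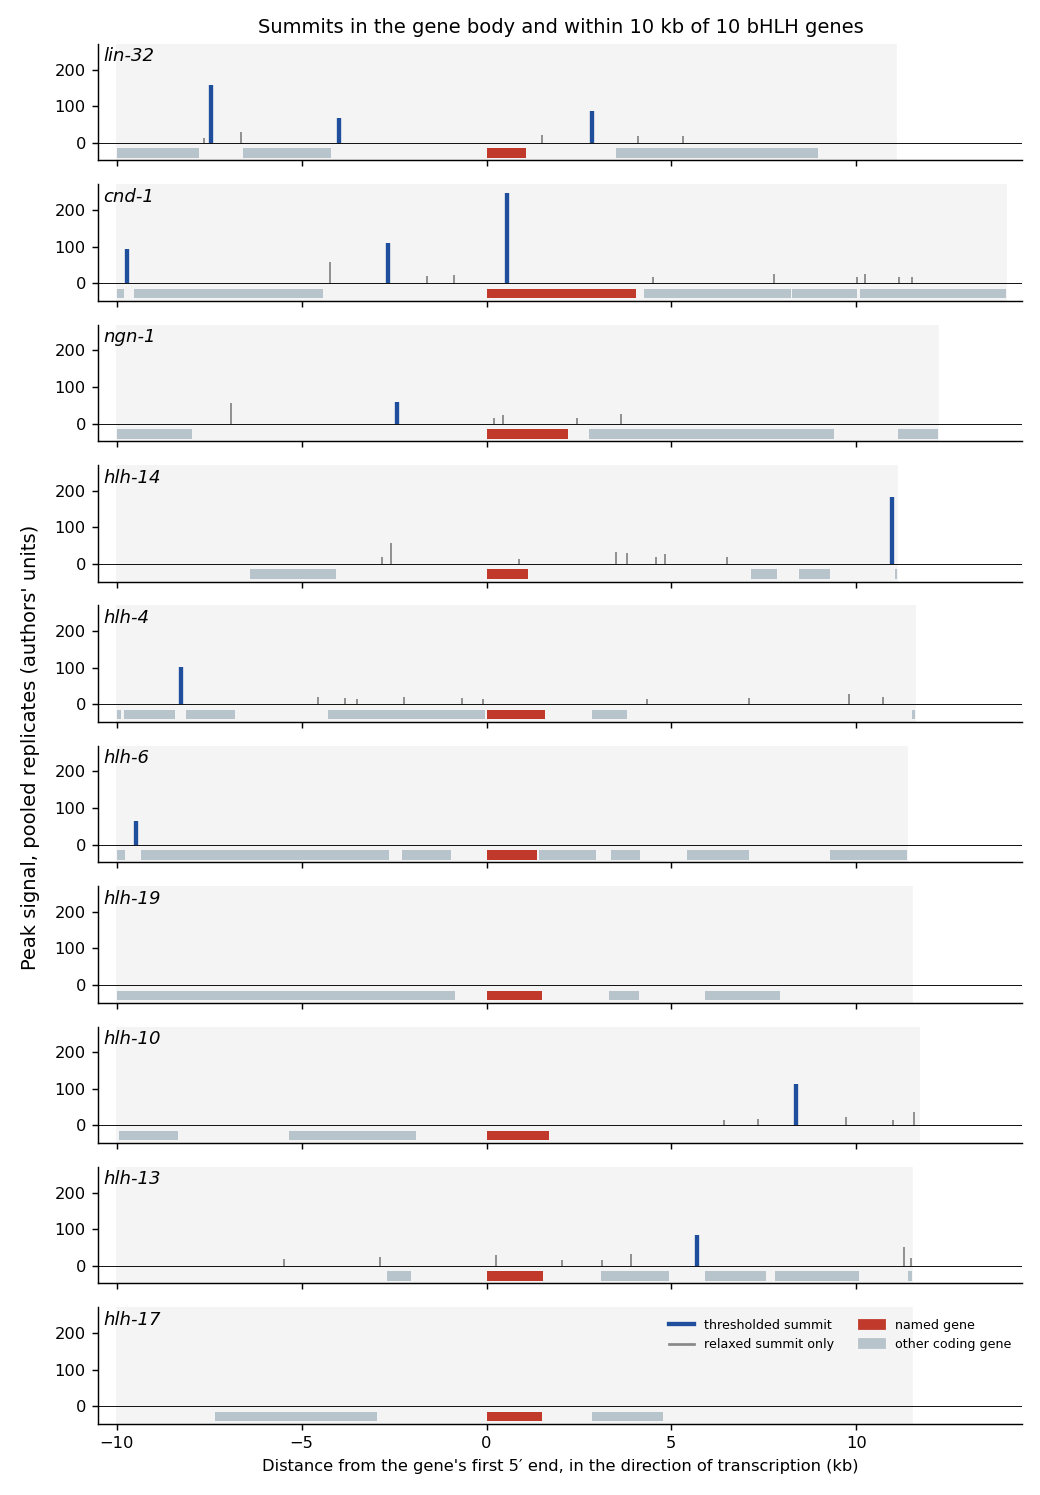
Peak summits around each bHLH gene, by distance in kb from its first 5′ end in the direction of transcription, with pooled peak signal in the authors' units on the vertical axis. Thick blue bars are thresholded summits, thin grey bars are summits of the relaxed list only, red boxes are the named genes, grey-blue boxes are other protein-coding genes, and shading marks the gene body with 10 kb on each side. The tallest bar, 245, lies inside cnd-1, and the hlh-17 and hlh-19 windows are empty.

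The first 6 sequences below come from the summits that lie in no coding promoter window: those in and upstream of cnd-1, upstream of ngn-1 and downstream of hlh-10, and the strongest sub-threshold summits upstream of cnd-1 and hlh-14. The last shows the bases beside a tRNA gene downstream of lin-32, without the E-box of that summit, which lies inside the tRNA gene. All are read from the WBcel235 (ce11) reference on the minus strand, which is the coding strand of these genes, with any E-box CANNTG in capitals. In the runs of 101 bases the summit is base 51. The shorter cnd-1 run lies beside its summit, at 5244091, and does not include it.
cnd-1 exon, chrIII:5244108-5244137: ggtggCAGCTGgctagatagCACATGagta
cnd-1 upstream, chrIII:5247249-5247349: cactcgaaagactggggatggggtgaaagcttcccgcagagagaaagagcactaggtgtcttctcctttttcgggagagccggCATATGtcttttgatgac
cnd-1 upstream, sub-threshold, chrIII:5248831-5248931: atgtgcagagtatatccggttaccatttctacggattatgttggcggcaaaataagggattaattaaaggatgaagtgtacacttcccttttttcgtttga
ngn-1 upstream, chrIV:2630649-2630749: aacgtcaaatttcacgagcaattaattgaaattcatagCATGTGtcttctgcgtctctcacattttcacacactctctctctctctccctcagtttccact
hlh-14 upstream, sub-threshold, chrII:5741421-5741521: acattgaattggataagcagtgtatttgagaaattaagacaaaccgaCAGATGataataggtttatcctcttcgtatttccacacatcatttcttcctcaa
hlh-10 downstream, chrV:9273797-9273897: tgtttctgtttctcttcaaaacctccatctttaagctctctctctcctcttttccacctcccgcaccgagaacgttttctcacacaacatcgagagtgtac
lin-32 downstream, chrX:2227263-2227316: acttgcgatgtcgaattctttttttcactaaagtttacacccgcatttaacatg

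The NeuroD-family gene cnd-1, which acts in the ventral cord motor neuron lineages, held the strongest summit of the set. It spans chrIII:5240591-5244639 on the minus strand, and its summit at position 5244091 had a pooled signal of 245 and rank 1059, above 83.3% of the thresholded list. The signal was 129 in replicate 1, at rank 910, and 115 in replicate 2, at rank 1356. Both replicates therefore placed this peak well above the middle of their lists. The summit lay 548 bp past the 5′ end, in the exon that carries the long 5′ untranslated region of 2595 bp, and 2047 bp before the start codon. The peak was 119 bp wide, against 390 bp for most peaks in these windows. Within 50 bp of the summit were 3 E-boxes, CAGCTG at 41 bp, CACATG at 26 bp and CATTTG at 3 bp, and the first of these is printed above with its neighbour.

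Further upstream, cnd-1 had a second thresholded summit at 5247299, 2660 bp before its 5′ end and in the 4435 bp of intergenic DNA that separates it from sumv-1. Its pooled signal was 110 at rank 3473, with 49.8 in replicate 1 and 56.8 in replicate 2. The nearest protein-coding 5′ end was that of cnd-1 itself, and the 101 bases hold the E-box CATATG and the run GAGAGA. The same intergenic stretch held a summit at 5248881, 4242 bp upstream, that fell just short of the thresholded list. It had a pooled signal of 57.7 and rank 6391, with 17.7 in replicate 1 and 41.7 in replicate 2, so replicate 2 carried most of it. Another thresholded summit, at 5254355 with a signal of 94.9, lay 9716 bp from the cnd-1 5′ end but 83 bp before gop-1, and in the promoter window of sumv-1 as well. Its replicate signals were 45.5 and 48.6. Of the set, cnd-1 had the most entries in the relaxed list, 12, beside 11 for hlh-4. The cnd-1 entries include a weak one 869 bp before the gene's 5′ end, with a signal of 22.8. cnd-1 is also the longest gene of the set, so its window was the widest.

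The neurogenin gene ngn-1 spans chrIV:2626062-2628271 on the minus strand, with 7955 bp of intergenic DNA upstream, more than any other gene of the set. Its only thresholded summit, at 2630699, lay 2428 bp before the 5′ end in this stretch and was nearest to ngn-1. The pooled signal of 59.9 at rank 6183 was close to the lowest signal of the thresholded list, 58.7, and the replicates gave 26 and 35.4. The 101 bases hold CATGTG, whose first base is 12 bp before the summit, and an alternating pyrimidine run. A sub-threshold summit in the same stretch, 6901 bp upstream at 2635172, had a signal of 55, with 21.9 in replicate 1 and 32.4 in replicate 2. Inside ngn-1 the relaxed list held only weak entries, at 213 bp and 455 bp past the 5′ end, with signals of 14.8 and 23.7. Binding upstream of ngn-1 was therefore at the edge of what the thresholded list keeps.

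The Atonal-family gene lin-32, needed for touch receptor neurons and the sensory rays of the male tail, spans chrX:2229055-2230122 on the minus strand. Of 3 thresholded summits in its window, the nearest lay downstream at 2227266, 2856 bp from the 5′ end and 1789 bp past the 3′ end. It had a pooled signal of 88.1 at rank 4400, and replicate signals of 42.0 and 53.1. Although lin-32 held the nearest protein-coding 5′ end, the summit was 4 bp upstream of the tRNA gene T14F9.t1, which runs over 72 bp on the minus strand at chrX:2227191-2227262. Of the 31-base words in this peak, 85.6% occur at a single place in the genome, whereas in each of the other 11 peaks 100% do. Whether reads of other tRNA genes added to this signal was not tested.

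Both upstream summits of lin-32 were at other genes. The one at 2234106, with a signal of 68.0 at rank 5573 and replicate signals of 32.1 and 37.3, lay 3984 bp from lin-32 but 218 bp before T14F9.2. It was the only 1 of the 12 with CAGGTG, the E-box known for Snail proteins, within 50 bp, its first base 35 bp from the summit. The strongest in the window, at 2237568, had a signal of 159 at rank 2220, and lay 7446 bp from lin-32 but 343 bp before vha-15, which encodes a subunit of the vacuolar proton pump. Replicate 1 gave 92.8 and replicate 2 gave 64.4 there, the largest excess of replicate 1 over replicate 2 among the 12.

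**Figure D2:**
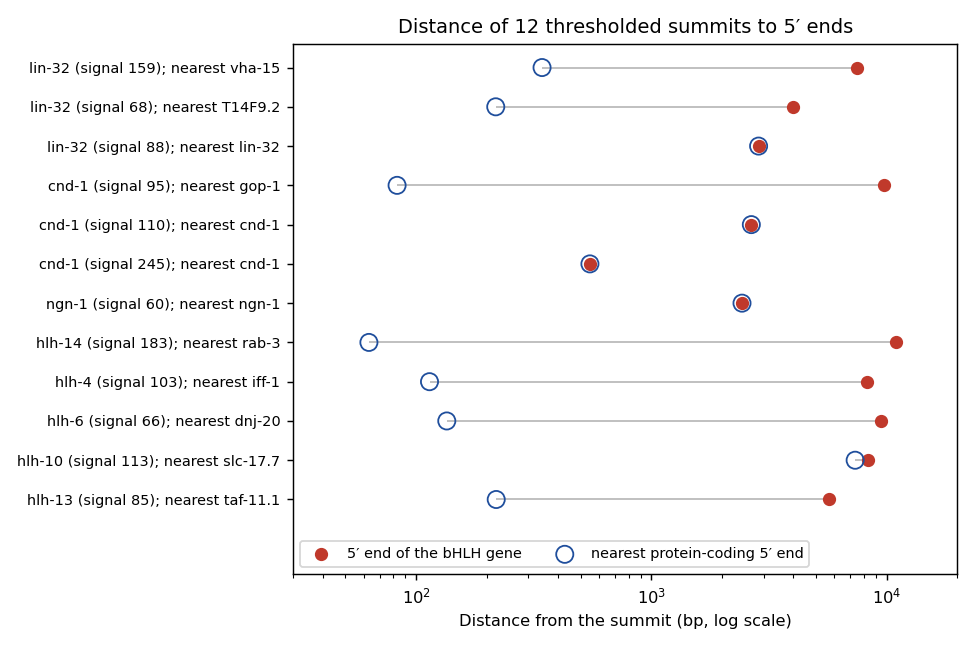
Distance in bp, on a log axis, from each of the 12 thresholded summits to the 5′ end of the bHLH gene in whose window it lies (filled red) and to the nearest protein-coding 5′ end of any gene (open blue). For 4 summits, in cnd-1, upstream of cnd-1 and ngn-1 and downstream of lin-32, both markers coincide, and 7 of the other 8 lie within 343 bp of another gene.

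Achaete-Scute family members hlh-14, hlh-4, hlh-6 and hlh-19 had no thresholded summit nearer than 8 kb. In worms hlh-14 acts in the neuroblasts of the PVQ, HSN and PHB neurons, hlh-4 sets the identity of the ADL sensory neuron, and hlh-6 acts in the pharyngeal glands. The hlh-14 window (gene at chrII:5737785-5738895, minus strand) held a summit at 5727916 with a signal of 183 and rank 1775. It lay 9869 bp past the 3′ end of hlh-14 and 63 bp before rab-3, the synaptic vesicle GTPase gene. The 5′ end of the non-coding RNA gene C18A3.18 was nearer still, 19 bp from the summit. Replicate 1 gave 68.2 and replicate 2 gave 111. Nearer to hlh-14, a sub-threshold summit stood 2576 bp before its 5′ end at 5741471, with a signal of 57.2, rank 6425, 34.7 in replicate 1 and 22.6 in replicate 2. That site lies in the 4073 bp between hlh-14 and the next coding gene upstream, and holds the E-box CAGATG printed above. It was 15 bp upstream of the non-coding RNA gene C18A3.19, far nearer than hlh-14.

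For hlh-4 (chrIII:9737472-9739054, minus strand) the thresholded summit at 9747307 had a signal of 103 at rank 3708, with replicate signals of 52.8 and 48.8. It was 8253 bp upstream of hlh-4 but 114 bp before iff-1, a gene for translation factor eIF5A, and in the promoter window of the mitotic kinase gene cdk-1. Only 39 bp separate hlh-4 from the gene upstream of it, T05G5.1. Its own promoter window held 2 entries of the relaxed list, with signals of 14.1 and 18.0 at ranks 28462 and 21933 of 30000.

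The hlh-6 window (gene at chrII:9613463-9614828, minus strand) held a single pooled summit, at 9624311, with a signal of 66.2 at rank 5692 and replicate signals of 26.7 and 37.2. It lay 9483 bp upstream of hlh-6, 135 bp before dnj-20, which encodes a DnaJ-type chaperone, and had the E-box CAAGTG within 50 bp. No pooled summit of any strength fell around hlh-19 (chrX:555792-557295, minus strand), whose nearest relaxed summit was 16205 bp and nearest thresholded summit 21354 bp from its 5′ end. Of all protein-coding genes, 75.6% had a thresholded summit nearer than hlh-19 had.

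Next in order came hlh-10 and hlh-13, the latter a relative of Ptf1a in vertebrates. The hlh-10 window (gene at chrV:9280512-9282210, minus strand) had a thresholded summit at 9273847, 6665 bp past its 3′ end, with a signal of 113 at rank 3360. It was far from any coding 5′ end, 7348 bp from the nearest, that of slc-17.7, and 3173 bp from the non-coding RNA gene ZK682.10. Replicate 1 gave 36 and replicate 2 gave 83.1, a log2 ratio of 1.21. Of shared thresholded peaks, 3.53% had a ratio that high, and 6.83% lay at least as far from the median ratio in either direction. This summit was also the least even of the 12. Its 101 bases hold TCTCTC, which is GAGAGA on the other strand, and no E-box.

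For hlh-13 (chrX:4249249-4250766, plus strand) the thresholded summit at 4254951 had a signal of 85.4 at rank 4523, with replicate signals of 41.6 and 47.4. It lay 4185 bp past the 3′ end and 219 bp before taf-11.1, which encodes a subunit of the general factor TFIID. A weak entry of the relaxed list stood in the body of hlh-13, 249 bp from its 5′ end, with a signal of 29.6 at rank 11882. Another sub-threshold summit, 9778 bp past the 3′ end and 108 bp before C52B9.4, had a pooled signal of 52.7 but split unevenly, with 45.1 in replicate 1 and 11.3 in replicate 2.

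The Olig-family gene hlh-17, expressed in the cephalic sheath glia, stood farthest from any CES-1 peak. It spans chrIV:16254764-16256274 on the plus strand, with its nearest thresholded summit 125717 bp and nearest relaxed summit 21790 bp from its 5′ end. A thresholded summit was nearer for 98.0% of protein-coding genes. Its close relatives are hlh-31, beside it, and hlh-32. They had no thresholded summit within 10 kb either, hlh-31 with 0 relaxed summits and hlh-32 with 7. The hlh-31 window overlaps most of the hlh-17 window, so its lack of summits largely repeats that of hlh-17. Of the 31-base words in the hlh-17 window, 80.7% occur at a single place in the genome, beside 91.3% genome-wide and 87.2% to 99.9% in the windows of the other 9 genes. Whether repeated sequence kept reads from this window was not tested.

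**Figure D3:**
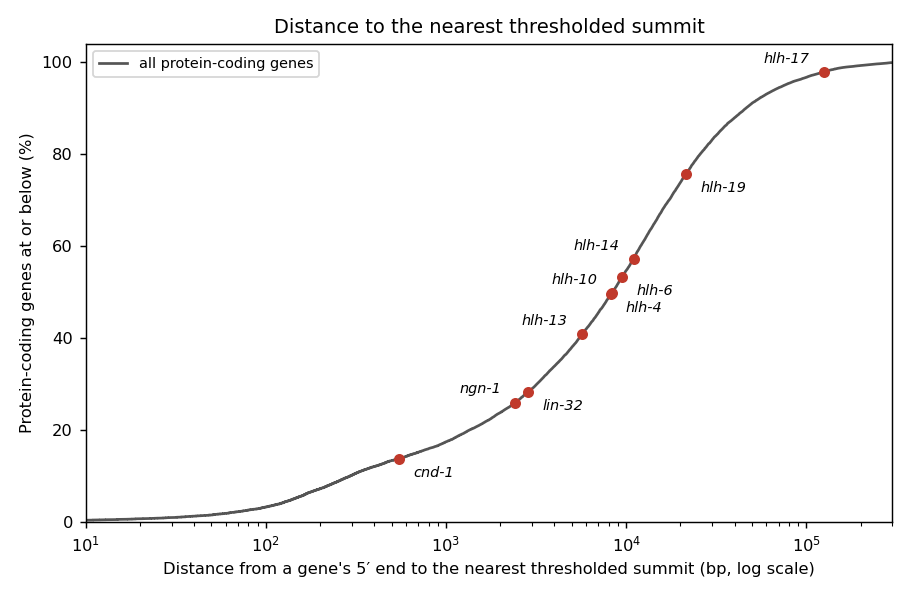
Share of protein-coding genes, in percent, whose nearest thresholded summit is at or below a given distance in bp (log axis) from the 5′ end, with the 10 bHLH genes marked in red. cnd-1 at 548 bp is nearest, hlh-19 and hlh-17 are farthest, and the others lie between 2428 and 10979 bp.

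Among protein-coding 5′ ends, the nearest was that of one of the bHLH genes for 4 of the 12 thresholded summits and of another gene for 8. The promoter window of another protein-coding gene held 7 of the 12, beside 44.3% of all thresholded summits in any coding promoter window. Counted by gene, 3 of the 10 (lin-32, cnd-1 and ngn-1) held the nearest 5′ end of a thresholded summit, against 3995 of 19973 genes, or 20%. All 11 summits outside cnd-1 lay outside protein-coding genes, and the share of all thresholded summits that do so was not computed. Signals were mostly moderate: 3 of the 12 exceeded the median of the thresholded list, those in cnd-1 and near rab-3 and vha-15, and the median of the 12 was 99.1.

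Each of the 12 summits had a counterpart within 100 bp in both replicate lists, against 94.5% of all thresholded summits. Replicate 2 over replicate 1 gave a median log2 ratio of 0.15, with an SD of 0.57, across the 5928 shared peaks. Within 1 SD of that median lay 10 of the 12, the others being the hlh-10 summit at 1.85 SD from it and the vha-15 summit at −1.18 SD. This spread is between single replicates and does not give the error of a pooled signal. The order of summits within the set is therefore read only across wide gaps. An example is cnd-1, with 129 and 115 in the replicates, against ngn-1, with 26 and 35.4.

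**Figure D4:**
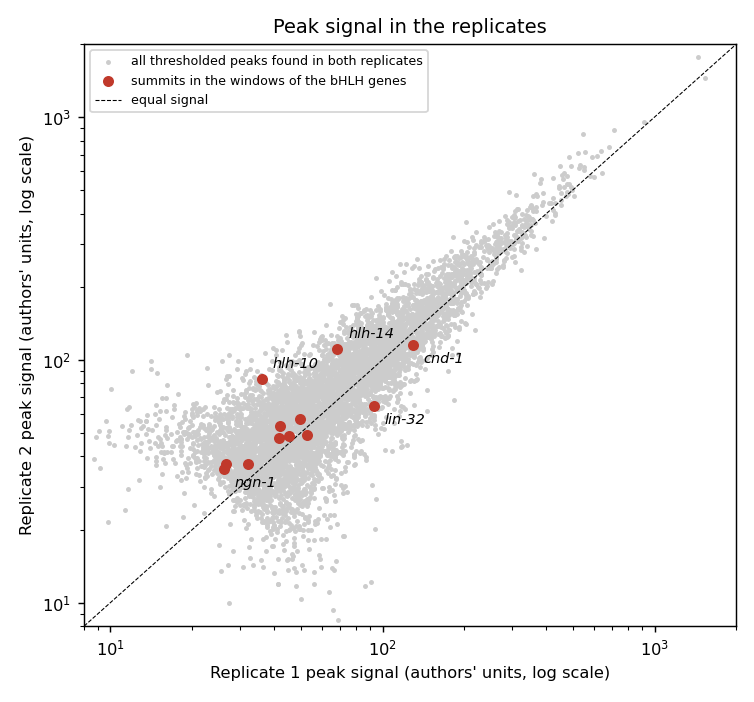
Peak signal in replicate 1 and replicate 2, in the authors' units on log axes, for all 5928 shared thresholded peaks (grey) and the 12 summits in the windows of the bHLH genes (red), with a dashed line of equal signal. The hlh-10 summit, 36 against 83.1, stands farthest from the line among the red points.

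An E-box CANNTG lay within 50 bp of 6 of the 12 summits, against 34.9% of all thresholded summits. The one downstream of lin-32, CACATG at 39 bp, lay inside the tRNA gene. Motifs were searched on both strands, and CANNTG takes in the next pair as well. CAGGTG was at 1 of 12, against 1.8%, and CAGCTG at 1 of 12, against 2.6%. The run GAGAGA, chosen after the sequences were seen, was at 5 of 12, against 23.3%. These are matches of letters in 101 bases and carry no statement about which protein was bound.

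Entries of the pooled relaxed list came closer to the genes, though mostly outside their promoter windows. The median distance from a 5′ end to the nearest relaxed summit was 1193.5 bp for the 10 genes, beside 2525 bp over all genes, and the median number of relaxed summits in a window was 7, beside 5. In the body or within 2 kb of it, 6 of the 10 genes had a relaxed summit and 2 a thresholded one. The shares of all genes at 2 kb were not computed, so these counts have no background. Relaxed summits fell in 8 of the 10 windows, against 78.2% of all genes, and in the promoter windows of 2 of the 10, cnd-1 and hlh-4, against 34.1%. Of 62 such summits, 50 were below the thresholded list, and 46 of these had a −log10 q under 2. The remaining 4 are those near cnd-1, ngn-1, hlh-14 and hlh-13 given above. Relaxed density was 2.85 per 10 kb of window, beside 2.99 over the genome, and 4357 genes, 21.8% of all, had no relaxed summit, as hlh-17 and hlh-19 did.

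Among 26 other bHLH genes, 16 (61.5%) had a thresholded summit in the body or within 10 kb and 4 (15.4%) in the promoter window, close to the shares of all genes given above. Those 4 were hlh-11, with a signal of 138, hlh-30, the TFEB homologue, with 132, and mdl-1 and mxl-2 of the Mad and Max families, with 100.3 and 60.4. Some neighbouring genes among the 26 share a summit, so the 16 do not stand for 16 separate peaks. The dimer partner hlh-2 had 3 thresholded summits in its window, the nearest 2896 bp from a 5′ end, and the Achaete-Scute gene hlh-3 had 0, the nearest 12560 bp away. Among 30 genes that act with, before or after proneural factors, 14 (46.7%) had a summit in the window, beside 57.9% of all genes. In the promoter window 4 (13.3%) had one, beside 16.2%. By promoter signal these 4 were the LIM homeobox gene lim-4 with 81.7, the Hox gene egl-5 with 80.1, and the SoxB-type genes sox-2 with 79.8 and sox-3 with 61.0. Stronger summits lay elsewhere in the windows of lim-4 (957.6), sox-3 (563.3) and sox-2 (143.1), but not of egl-5. The egl-5 summit had no counterpart in the replicate 2 list. The lists share 4 genes.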

How the data were processed

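ChIP-seq peaks of tagged CES-1 were taken from 4 deposited lists on ce11 (WBcel235): the thresholded list, the pooled relaxed list and a relaxed list of each replicate. The same lists on the older build were not used. Per the deposited notes, the relaxed lists derive from the alignments of the libraries and a further alignment whose role is not named, and the thresholded list from the relaxed ones by irreproducible discovery rate. Which peak caller and aligner were used is not given in the sources read here. Column 7 is the authors' peak signal and column 9 the authors' −log10 q-value. Read depth is unknown, so no counting interval is given.

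Summits (peak start plus offset) were placed against Ensembl release 115 genes in Python 3.11.15 (numpy 2.4.6, pandas 2.3.3), and the code was tested on simulated data. Replicate summits were matched within 100 bp. Single-copy sequence was scored with words of 31 bases from the reference. All 10 bHLH genes are named, with genes nearest to their summits and up to 4 genes of each list with the strongest promoter summit. A few further genes are named as family relatives (hlh-2, hlh-3, hlh-31, hlh-32), as promoters shared by a summit, or as the nearest upstream or non-coding neighbour, chosen after their values were seen. The members and lists were chosen with earlier results of these data known. Shares over all genes or summits are given as background, with no test. The distance, promoter extent, matching distance, strength, motif distance, replicate and annotation were varied.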

Additional observations from a re-analysis of the deposited data

How the results depend on the processing

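No paired analysis was possible because both replicates belong to a single group. Of the 10 genes, 8 had a thresholded summit within 10 kb; 2 had one within 2 kb, 4 within 5 kb and 9 within 20 kb, and with 500 or 2000 of the strongest peaks kept the count was 0 or 2. The 12 summits became 2, 6 and 26 at those distances, and 0 and 2 with those peaks. The 3 genes holding a nearest 5′ end became 0 and 1 with those peaks, and 2 when non-coding genes were counted, since the lin-32 summit then went to a tRNA gene. E-boxes were at 3 of 12 summits within 25 bp and 9 within 100 bp, beside 6 within 50 bp. These follow from the settings' own construction. Shares of all genes or summits at these alternative settings, or with single replicates, were not computed. No gene gained a thresholded promoter summit under any alternative, but the widest window tried ended 500 bp past a 5′ end. The cnd-1 summit, 548 bp past its 5′ end, lay just outside it. This absence therefore also depends on where the windows end. With an equal number of the strongest peaks of a single replicate, 7 to 8 genes had a summit, 14 to 15 summits fell in the windows, and without replicate 2 ngn-1 had 0. In the replicate lists the strongest summit's rank ran from 910 to 1356 for cnd-1, 1657 to 3234 for lin-32, 5935 to 7390 for ngn-1, 1445 to 2614 for hlh-14, and 3532 to 4411 for hlh-4, at the same summits as in the pooled list. For 3 genes the strongest summit was another one in at least 1 replicate. The rank ran from 2302 to 4019 for hlh-10 and from 4216 to 4552 for hlh-13, where replicate 1 had a stronger summit elsewhere in the window and ranked the pooled one 5312 and 4577. For hlh-6 it ran from 3331 to 3793, at another summit than the pooled one at 5692 in both replicates. The peak lists give no read depth, so a weak entry and an absent one cannot be told apart near the bottom of a list.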

Other observations

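On the side of hlh-6 away from its pooled summit, both replicate lists had a peak that the pooled list used here did not have. In replicate 1 its summit was at chrII:9603547 with a signal of 49.8 and rank 3793, and in replicate 2 at 9603560 with a signal of 62.9 and rank 3331. The site is in an intron of the nuclear hormone receptor gene nhr-19, 9916 bp past hlh-6. The nearest pooled summit was 1917 bp away, with a signal of 24.6. Among 4786 summits shared by the strongest peaks of both replicates, 41 (0.857%) had no pooled summit within 200 bp. The cause was not tested.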
